A study of Drosophila melanogaster with 8 samples.

Results

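The regions described here are broad peaks of RNase H1 binding in control wing discs that overlap exactly 1 peak of the ecd1 list. A control peak was taken when it was at least 4000 bp wide and shared at least 1 bp with exactly 1 ecd1 peak. There were 609 such peaks among 8597 control peaks, which is 7.08% (95% Wilson interval 6.56 to 7.65, counting error only), and among 910 control peaks of at least 4000 bp, which is 66.9%. Of the other broad control peaks, 284 met 2 or more ecd1 peaks and 17 met none. The members summed to 3.39 Mb, or 19.1% of the bases under control peaks. The members were chosen by their width and their overlap in these data, so both are given as descriptions with no test.

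The series mapped RNase H1 by Targeted DamID in wing imaginal discs of *Drosophila melanogaster*, the larval epithelial sacs that form the adult wing and its hinge. Larvae carried either the ecd1 allele or no ecd mutation by their labels, and in both genotypes *nub*-Gal4, a driver active in the wing pouch, expressed Dam or Dam-RNase H1. In both genotypes tub-Gal80 kept the Dam constructs silent during growth at 25 °C, and larvae spent 24 h at 29 °C from day 6 after egg laying, a shift that also inactivates the temperature-sensitive ecd1 protein. Discs were dissected on day 7 from larvae of the third instar. The groups were ecd1 Dam-RNase H1 with 3 libraries, ecd1 Dam-only with 1 library, control Dam-RNase H1 with 3 libraries and control Dam-only with 1 library. For the Dam-only library of ecd1, the description field names Dam-RNase H1 but title and genotype name Dam-only, and the genotype was followed. How many discs entered each library is not given in the sources used here.

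Nascent RNA can pair with its DNA template and displace the other strand, which forms an R-loop. RNase H1 binds the RNA:DNA hybrid of such a structure and cuts its RNA. A Dam fusion methylates adenines in GATC sites near the places the protein contacts, so a broad peak is a run of neighbouring GATC fragments with fusion signal and not a single binding site. In bulk tissue, contact in more cells and more contact per cell cannot be told apart.

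The data used are 1 peak list for each genotype, with 9559 peaks for ecd1 and 8597 for control, the authors' gene table of the control peaks, and the authors' tables of regions that differed. A list pools the libraries of its genotype, and no library has values of its own in the files. The values below therefore have no replicate error, and the depth behind them is unknown. The peak height is the authors' score, for which the sources used here give neither scale nor log base. The lists of the genotypes were made separately. Coordinates are those of BDGP6.

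The working name of these peaks, kept whole in ecd1, held for some of them only. The single ecd1 peak covered a median of 97.7% of the control peak, and all of it in 283 of 609 (46.5%, interval 42.5 to 50.4). It covered at least 90% in 366 (60.1%) and less than 50% in 58 (9.52%). In 21 peaks (3.45%) the cover was under 25%. Over all members, 2.89 Mb of the 3.39 Mb lay under an ecd1 peak, or 85.3%. They are therefore called broad control peaks with exactly 1 ecd1 peak, and the cover of single peaks is given beside their heights where it was under 90%.

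The widths ran from 4001 to 18050 bp, with a median of 4988 bp and quartiles of 4401 and 6056 bp. A width under 5000 bp was found for 308 of 609 (50.6%), and 18 (2.96%) were 10000 bp or wider. Just inside the width threshold lay a 4001 bp peak at *dl*, which encodes the NF-kappaB protein Dorsal. Its height was 2.39 in ecd1 and 1.56 in control, with a cover of 51.4%. The next were a 4010 bp peak at *pyd*, the fly ZO-1 homologue, with heights of 2.06 in ecd1 and 1.82 in control, and a 4011 bp peak at *Rrp42* with 1.51 in ecd1 and 1.30 in control and a cover of 70.5%. Just outside it lay a 3995 bp peak beside *CR44939* with heights of 1.31 in ecd1 and 1.00 in control. A 3995 bp peak at *tRNA:Lys-TTT-1-1* had 1.43 in ecd1 and 1.41 in control with a cover of 77.7%, and a 3988 bp peak in *RapGAP1* had 1.81 in ecd1 and 1.68 in control with a cover of 75.7%. The heights on either side of the threshold thus overlapped.

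The share of broad control peaks with exactly 1 ecd1 peak was lower in the wider classes. It was 75.9% (308 of 406) from 4000 to under 5000 bp and 71.5% (138 of 193) from 5000 to under 6000 bp. It was 58.7% (108 of 184) from 6000 to under 8000 bp and 43.3% (55 of 127) from 8000 bp on. A wider peak has more room for several ecd1 peaks, and the rule used the width. The members' median control height was 1.19, 1.30, 1.28 and 1.43 in these classes, and Pearson's r between width and control height was 0.180 (Spearman's rho 0.193) across 609 peaks of 1 list.

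**Figure D1:**
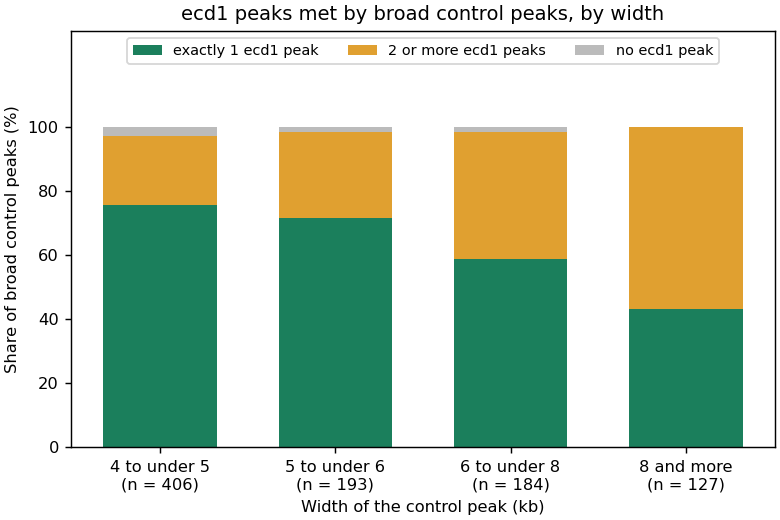
Share of broad control peaks (%, vertical axis) by the number of ecd1 peaks they met, in 4 classes of control peak width (kb, horizontal axis). The part with exactly 1 ecd1 peak is 75.9% of 406 peaks in the narrowest class and 43.3% of 127 in the widest.

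The members lay on all large chromosome arms. They numbered 110 on 2L, 128 on 2R, 145 on 3L, 137 on 3R and 89 on X, which is 7.12%, 7.72%, 8.13%, 7.11% and 5.58% of the control peaks of each arm. None of the 86 control peaks of chromosome 4 was a member. The median control height of members was 1.09 on X and between 1.23 and 1.30 on the 4 large autosomal arms.

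Protein-coding genes under these peaks were long. The 609 peaks overlapped the spans of 861 annotated genes, 623 of them protein-coding. The median length of those 623 was 12441 bp, against 3319 bp for the protein-coding genes under all control peaks. It was 9273 bp at broad control peaks with 2 or more ecd1 peaks and 18022 bp at the 17 with none. Long genes were thus not particular to members among the broad control peaks. Only a gene longer than 4000 bp can hold such a peak wholly, so gene length is not independent of the width rule. Of the members, 282 (46.3%) lay wholly inside a gene span, against 49.5% of all control peaks. A gene end lay in 315 (51.7%, against 41.5% of all control peaks), and 76 (12.5%, against 15.3%) lay over no annotated gene. The share with a gene end was 58.1% at broad control peaks with 2 or more ecd1 peaks and 35.3% at those with none. Without strand in the annotation, a gene end could be a start or a stop of transcription.

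The authors' gene table placed 655 genes at 396 of the peaks, which is 7.91% of its 8284 genes. A single gene was listed at 212 peaks, 2 genes at 126 and 3 or more at 58. The remaining 213 peaks had no gene in the table, although 175 of them lay over an annotated gene. The table lists each gene at 1 peak only: of 1531 genes that overlapped several control peaks, 957 were listed at the tallest and 811 at the widest of them. Spans of genes were therefore used beside the table. Of 646 table genes matched to the annotation, 444 (68.7%) overlapped the peak at which they were listed and 202 lay beside it. Among the overlapping ones, 93 held the whole peak, 89 lay wholly inside it and 262 overlapped it at 1 end.

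A larger share of the table's long non-coding RNA genes than of its coding genes lay at these peaks. Genes typed as lncRNA numbered 116 of 775 (15%), against 478 of 6803 protein-coding genes (7.03%) and 7.91% of all genes in the table. Antisense RNA genes stood at 18 of 226 (7.96%) and miRNA genes at 10 of 94 (10.6%). Only 61 of the 116 lncRNA genes overlapped their peak, whereas 356 of the 478 coding genes did.

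The widest peak was the 18050 bp peak 2R:19727871-19745920 over the 5S rRNA genes, the tandem array that RNA polymerase III transcribes for the small RNA of the large ribosomal subunit. The ecd1 peak had a height of 0.56, against 1.24 for the control peak. It was 1108 bp wide (2R:19735602-19736709) and covered 6.14% of the control peak. In the annotation the array holds 100 genes between 19729562 and 19766278 on 2R. In ecd1, 4 peaks with heights of 0.56, 0.65, 0.62 and 0.66 held 4, 6, 7 and 5 of these genes. In control, 3 peaks with heights of 1.24, 1.35 and 1.22 held 45, 42 and 12 of them. Thus 3 control peaks spanned nearly the whole array, whereas the ecd1 peaks were short pieces of it. The last of these control peaks, 2R:19762160-19768367 beside *Or56a*, is also a member, with heights of 0.66 in ecd1 and 1.22 in control and a cover of 26.9%. The authors' deposited table gave 4 regions higher in control in the 18050 bp peak, with heights of 1.24, 1.22, 1.01 and 0.90. The 5S genes are near-identical copies, and how reads shared between copies were placed is not given in the sources used here, so positions and heights within the array are uncertain.

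The other 9 of the 10 widest peaks were taller in ecd1. At *brat*, a translational repressor and tumour suppressor, the peak 2L:19154284-19169688 was 15405 bp wide with the same ends in both lists and heights of 1.69 in ecd1 and 1.38 in control. At *a* (arc), which encodes a PDZ-domain protein needed in the wing, 2R:22148232-22162447 was 14216 bp wide with the same ends in both lists and heights of 1.75 in ecd1 and 1.30 in control. Each was thus the same interval in either list. Both lay wholly inside these genes by span, while the authors' gene table listed *CR44977* at the first and *CG34206* at the second.

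At *fj* (four-jointed), a Golgi kinase of the Fat and Dachsous pathway, 2R:18224531-18237825 was 13295 bp wide and its ecd1 peak 16247 bp. Its height was 1.92 in ecd1 and 1.64 in control. At *fng* (fringe), the glycosyltransferase that tunes Notch at the wing margin, 3L:20915467-20927177 was 11711 bp wide with heights of 1.36 in ecd1 and 1.24 in control. Most of this peak lay outside *fng*, whose annotated span begins at 20925891, and the authors' gene table listed *CR43930* there. At *bs* (blistered), the fly serum response factor of intervein cells, 2R:24337875-24348770 was 10896 bp wide with heights of 1.99 in ecd1 and 1.37 in control. All 3 were fully covered by the ecd1 peak. The authors' deposited table listed 3 regions higher in ecd1 within the *bs* peak, with heights of 1.21, 0.95 and 0.80.

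The remaining 4 differed in cover. At *rdx* (roadkill), an adaptor for degradation of the Hedgehog effector Ci, 3R:14002307-14013405 was 11099 bp wide with the same ends in both lists and heights of 2.00 in ecd1 and 1.75 in control. At *Socs16D*, of the suppressor of cytokine signalling family, and *CG6398*, X:17826750-17837904 was 11155 bp wide with heights of 2.00 in ecd1 and 1.44 in control. At *sgg* (shaggy), the fly GSK3 kinase, X:2640752-2652032 was 11281 bp wide with heights of 1.18 in ecd1 and 0.93 in control and a cover of 58.2%. At *bbg* (big bang), a PDZ-domain protein, 3L:14482534-14493466 was 10933 bp wide with heights of 1.74 in ecd1 and 1.24 in control and a cover of 82.2%. The peaks at *rdx* and *Socs16D* were fully covered, and the other two were not.

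**Figure D2:**
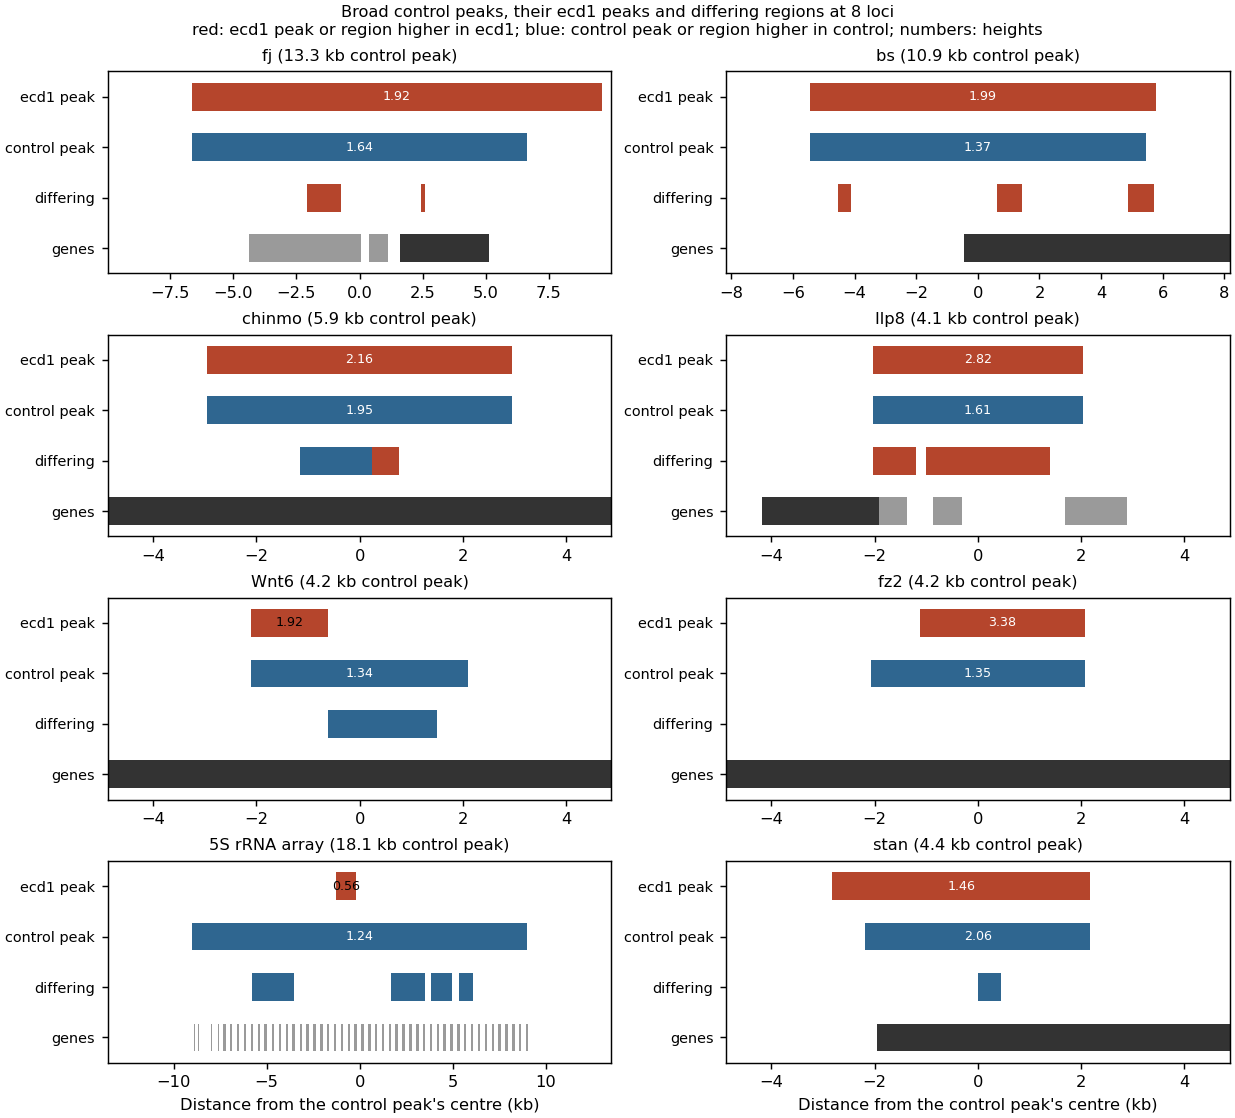
Position of the ecd1 peak (red, with its height), the control peak (blue, with its height), the regions of the authors' difference tables (red where higher in ecd1, blue where higher in control) and the annotated genes (black for the gene in the title, grey for others) at 8 loci chosen after their values were seen; the horizontal axis is the distance from the control peak's centre in kb. The ecd1 peak spans the control peak at fj, bs, chinmo, Ilp8 and stan, whereas it covers 77.0% of it at fz2, 35.4% at Wnt6 and 6.14% at the 5S rRNA array.

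The tallest control peaks among the members were narrower than these. At *arr* (arrow), the LRP co-receptor of Wingless, 2R:13462017-13466623 had a height of 2.59 in ecd1 and 2.21 in control, the highest control value of the 609. At *stan* (starry night), an atypical cadherin of planar cell polarity, 2R:10673122-10677481 had 1.46 in ecd1 and 2.06 in control. The authors' gene table listed *CR46229* at this peak. At lncRNA:CR44573, 2R:19909100-19914847 had 1.69 in ecd1 and 2.06 in control. The peaks at *stan* and lncRNA:CR44573 were the only 2 of the 10 tallest that were taller in control.

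At *dsx* (doublesex), the sex-determination transcription factor, 3R:7966106-7970925 had 2.62 in ecd1 and 2.05 in control. The authors' gene table listed *CD98hc* and not *dsx* at this peak. At *ASPP*, whose product binds the Src regulator Csk, 2R:21245460-21251381 had 2.29 in ecd1 and 2.04 in control, and at *CR34006* 3R:27218826-27224112 had 2.10 in ecd1 and 2.04 in control. All 3 were taller in ecd1. The peak at *CG43759* had 3.04 in ecd1 and 2.01 in control, and that beside *NAT1*, a translation factor gene, had 2.59 in ecd1 and 1.98 in control. The peak at *crp*, which encodes a bHLH leucine zipper factor, had 2.94 in ecd1 and 1.96 in control, and that at the ecdysone-inducible gene *ImpE2* had 2.18 in ecd1 and 1.98 in control. The *ImpE2* peak was covered by 79.1%, and the authors' deposited table gave a region of height 0.57 higher in control there.

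Across all 609, heights were larger in the ecd1 list at most peaks. The ecd1 peaks had a lowest height of 0.49, a median of 1.62 and a highest of 3.38, against 0.53, 1.24 and 2.21 for the control peaks. The ecd1 peak was taller at 550 peaks (90.3%) and the control peak at 54 (8.87%), with 5 equal. Among all 6638 control peaks with exactly 1 ecd1 peak the same shares were 82.2% and 17%, so a taller ecd1 peak was common throughout the lists. The median difference (ecd1 minus control) was 0.35 at the broad peaks and 0.27 at control peaks under 4000 bp with exactly 1 ecd1 peak. Heights of the lists moved together across the broad peaks, with Pearson's r of 0.729 and Spearman's rho of 0.746 over 609 peaks.

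The ends of the peaks often differed. The ecd1 peak was wider than the control peak at 191 of 609 (31.4%), of the same width at 127 (20.9%) and narrower at 291 (47.8%). It was itself under 4000 bp at 155 (25.5%). All 127 of the same width had the same start and end, and 120 of these (94.5%) were taller in ecd1, with a median height of 1.73 in ecd1 and 1.34 in control. Of the 326 peaks not fully covered, 125 were uncovered at the left only, 133 at the right only and 68 at both sides. The ecd1 peak reached at least 1 further control peak at 65 members. In all, 3 ecd1 peaks met 2 members each, so 6 members share their ecd1 values with another member.

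**Figure D3:**
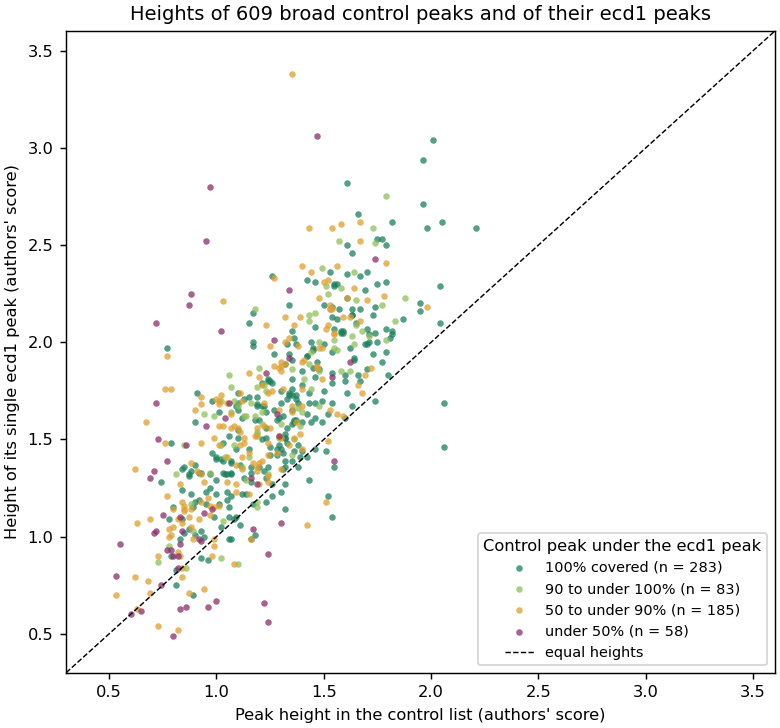
Height of the single ecd1 peak (vertical axis, authors' score) against the height of the control peak (horizontal axis, authors' score) for 609 broad control peaks, coloured by the share of the control peak that the ecd1 peak covers; the dashed line marks equal heights. Most points, 550 of 609, lie above the line.

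At each of the 5 largest height differences the ecd1 peak covered a part of the control peak only. In *fz2*, a Wingless receptor, 3L:19191657-19195808 had a height of 3.38 in ecd1 and 1.35 in control, with a cover of 77.0%. At *CR44970* and *CR44971*, 2L:12836202-12844931 had 2.80 in ecd1 and 0.97 in control, with a cover of 41.2%. At *Tsp74F*, a tetraspanin, 3L:17892910-17897310 had 3.06 in ecd1 and 1.47 in control, with a cover of 41.1%. None of these 3 ecd1 peaks spanned its control peak.

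At *CR44617* and *CG32982*, 2L:9119706-9127521 had 2.52 in ecd1 and 0.95 in control, with a cover of 37.1%. At *Moe*, which encodes Moesin and links membranes to cortical actin, X:8881717-8886741 had 2.10 in ecd1 and 0.72 in control, with a cover of 42.7%. The part of the shorter ecd1 peaks in these height differences was not tested. At the other end of the range, next to the 2 peaks of the 5S array, *stan* and lncRNA:CR44573, stood *Fili*, where 2R:21895240-21900265 had 1.10 in ecd1 and 1.54 in control.

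The authors' difference tables gave both directions at these peaks. By the authors' deposited table, 286 of 609 peaks (47.0%, interval 43.0 to 50.9) overlapped a region higher in ecd1, against 30.1% of all control peaks and 35.1% of all control peaks with exactly 1 ecd1 peak. A region higher in control overlapped 109 (17.9%, interval 15.1 to 21.1) by the authors' deposited table, against 14.2% of all control peaks and 9.36% of those with exactly 1 ecd1 peak. Regions of both directions lay in 43 peaks (7.06%), and no region lay in 257 (42.2%), by the authors' deposited table.

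A wide peak can meet a region more easily than a narrow one. Per 10 kb of peak, the authors' deposited table held 0.956 regions higher in ecd1 and 0.348 higher in control at these peaks. Over all control peaks the authors' deposited table held 1.52 and 0.702 per 10 kb. The larger share of peaks with a region thus went with fewer regions per length as counted here. A region that touched a peak by 1 bp counted in full, which adds more per length at narrow peaks. The median width was 4988 bp for members and 1575 bp for all control peaks. The authors also listed 1 region per gene and direction only. The part of both in these rates was not tested. At broad control peaks with 2 or more ecd1 peaks, the authors' deposited table gave 50.4% with a region higher in ecd1 and 33.8% with one higher in control. The share with a region higher in ecd1 was thus close between the classes of broad peaks, and that with a region higher in control was larger at the split ones, a class that the rule separates by this same contrast.

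Regions higher in ecd1 sat under the shared part of the peak, and regions higher in control were often in the part the ecd1 peak left uncovered. The authors' deposited table held 324 regions higher in ecd1 at these peaks, with a median height of 0.88 and a median width of 1103 bp, and 99.7% of them lay wholly under the ecd1 peak as far as they overlapped the member. The authors' deposited table held 118 regions higher in control, with a median height of 0.62 and a median width of 748 bp. Of those 118, 43 (36.4%) lay wholly under the ecd1 peak, 21 (17.8%) wholly outside it, and 67 (56.8%) were less than 50% under it, by the authors' deposited table. The regions and the peak ends come from the same libraries, so this is no independent check of either.

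The share of peaks with a region differed by cover. Cover and regions come from the same libraries and the same contrast of genotypes, so these shares are a description and no independent check. A fully covered peak also has no uncovered part in which a region higher in control could lie. By the authors' deposited table, a region higher in ecd1 was found at 20.7% of the 58 peaks covered by less than 50%, at 40.5% of the 185 covered from 50 to under 90%, at 49.4% of the 83 covered from 90 to under 100% and at 55.8% of the 283 fully covered. For regions higher in control, the authors' deposited table gave 43.1%, 28.6%, 18.1% and 5.65% of the same classes. The median difference in height (ecd1 minus control) was 0.27, 0.36, 0.42 and 0.31 in these classes, which shows no such order.

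**Figure D4:**
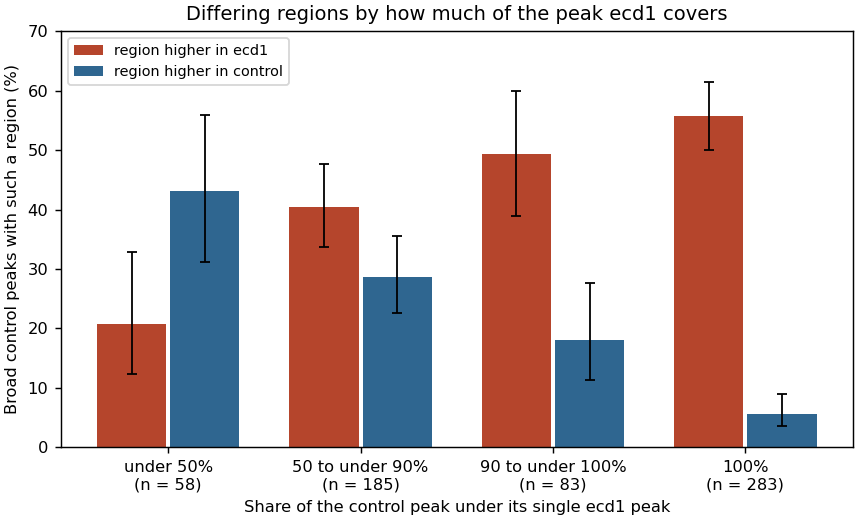
Share of broad control peaks (%, vertical axis) that overlap a region of the authors' difference tables, by the share of the control peak under its single ecd1 peak; red bars are regions higher in ecd1, blue bars regions higher in control, and error bars are 95% Wilson intervals (counting error only). With full cover the shares are 55.8% for regions higher in ecd1 and 5.65% for regions higher in control, and with less than 50% cover they are 20.7% and 43.1%. Cover and regions come from the same libraries and contrast, so neither is an independent check of the other.

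The tallest of these regions lay in genes of varied function. In the authors' deposited table the region of largest height higher in ecd1 was 2.40 at *CG6398* (X:17833852-17834433), followed by 2.32 at *CG32982* and 2.09 at *COQ7*, a gene of ubiquinone synthesis beside *shf*, which encodes an extracellular protein that aids the spread of Hedgehog. In the authors' deposited table the largest higher in control was 1.74 at *Ptp61F*, a tyrosine phosphatase that restrains JAK/STAT signalling (3L:1438453-1438941), a region of 489 bp of which 0.2% lay under the ecd1 peak. A region of 1.57 at the chitinase gene *Cht7* followed in the authors' deposited table, where the peak itself had a height of 1.06 in ecd1 and 1.42 in control and a cover of 65.2%.

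Developmental regulators were counted by a list of 110 symbols for patterning and selector genes and others such as *hid* and *Myc*. The gene lists overlap. The stress and JNK list also holds *hid*, the growth list *Myc* and the myoblast and muscle list *vg*. The gene table placed 14 of 90 list genes at the broad peaks (15.6%, against 7.91% of all genes). By gene span, 32 of the 86 list genes that lay on a control peak touched one of them (37.2%, against 12% of all 7150 genes on a control peak). Counted by peak, 41 of 609 members held a list gene by span (6.73%), against 77 of 910 control peaks of at least 4000 bp (8.46%). By the gene table these shares were 2.30% and 2.53%. The list's genes were thus not particular to members among the broad control peaks. List genes were long, with a median of 17530 bp against 2606 bp for all genes on control peaks. Among all genes on control peaks the share was 8.62% under 5 kb, 13.3% from 5 to under 20 kb, 25.3% from 20 to under 50 kb and 40.1% from 50 kb on. In the same length classes it was 2 of 15, 10 of 33, 12 of 26 and 8 of 12 for the list. The part of length in the list's share was not tested.

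The 32 genes lay on 41 of the broad peaks, with median heights of 1.60 in ecd1 and 1.22 in control. Of the 41 peaks, 24 were fully covered, 36 (87.8%) were taller in ecd1 and 5 in control, beside 90.3% taller in ecd1 over all members. Of the 41, 23 (56.1%) overlapped a region that the authors' deposited table gives as higher in ecd1, and 3 (7.32%) one higher in control. The shares over all 609 were 47.0% and 17.9% in the authors' deposited table.

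Of the Hedgehog pathway, the list genes at these peaks were a ligand, its receptor and a target. At *hh*, the ligand, 3R:23141057-23151137 across an end of the gene was 10081 bp wide with heights of 2.22 in ecd1 and 1.70 in control and a cover of 81.55%, and 3R:23129803-23134730 within the gene had 1.69 in ecd1 and 1.16 in control. At *ptc* (patched), the receptor, 2R:8652220-8660138 had 1.60 in ecd1 and 1.37 in control, while 2R:8645142-8649662 at the end of the gene had 1.5 in ecd1 and 0.73 in control with a cover of 42.4%. At *kn* (knot), a transcription factor of the region between the middle wing veins, 2R:14780625-14785844 had 2.50 in ecd1 and 1.79 in control with the same ends in both lists. With *rdx* above, each of these 4 genes carried at least 1 such peak.

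Wnt pathway genes covered ligands, receptors and co-receptors. At *Wnt6*, 2L:7339343-7343559 had heights of 1.92 in ecd1 and 1.34 in control, but the ecd1 peak covered only 35.4% of it, and the authors' deposited table gave a region of height 0.62 higher in control in the uncovered part. The span of *fz2* held 3 members, with heights of 0.99, 1.74 and 3.38 in ecd1, 0.92, 1.10 and 1.35 in control, and covers of 21.55%, 100% and 77.0%. The span of *fz* held 2, with 1.47 and 0.99 in ecd1 and 0.85 and 1.07 in control. At *fz3*, another gene of the Frizzled receptor family, X:773159-781114 had 2.06 in ecd1 and 1.58 in control. These genes thus carried peaks both fully and barely covered. Next to *wg* itself, 2L:7316912-7323521 had 1.59 in ecd1 and 1.44 in control, and the authors' deposited table gave *wg* a region of height 1.63 higher in ecd1 there.

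Genes of the BMP, Notch and EGF pathways followed. At *dpp*, the BMP ligand, 2L:2448133-2452605 had 1.67 in ecd1 and 1.09 in control, and at *tkv*, its receptor, 2L:5222688-5226920 had 1.46 in ecd1 and 1.25 in control. At *Dad*, the inhibitory Smad, 3R:17059039-17066465 had 2.30 in ecd1 and 1.55 in control, and at *brk* (brinker), the repressor of BMP targets, X:7304287-7309489 had 1.40 in ecd1 and 1.00 in control. All 4 were fully covered. At *N* (Notch), X:3145556-3150079 had 1.13 in ecd1 and 0.85 in control with a cover of 52.2%, and at *Egfr*, 2R:21549145-21555956 had 1.74 in ecd1 and 1.34 in control with full cover. The *Delta* span held 2 members, which made up 57.8% of it. The E(spl) complex of Notch target genes held 2 more, 3R:25995804-26001782 with 2.12 in ecd1 and 1.56 in control and 3R:26004101-26011360 with 2.41 in ecd1 and 1.79 in control and a cover of 85.7%.

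Selector genes of appendages and segments were the other large group. At *Dll* (Distal-less), 2R:24821283-24830441 had 1.70 in ecd1 and 1.49 in control. At *vg* (vestigial), the wing selector, 2R:12892161-12898048 had 1.15 in ecd1 and 1.19 in control, and at *sd* (scalloped), its DNA-binding partner, X:15809122-15814426 had 1.85 in ecd1 and 1.48 in control. At *Scr* (Sex combs reduced), a Hox gene of the anterior body, 3R:6814926-6823904 was 8979 bp wide with 2.36 in ecd1 and 1.64 in control. Most of this peak lay outside *Scr*, whose annotated span begins at 6823120, and it also held lysine tRNA genes and part of lncRNA:CR42651. The peak of *vg* was thus one of the 54 that were taller in control. The authors' deposited table gave the *Scr* peak a region of height 1.77 higher in ecd1, which it listed for the neighbouring non-coding genes and a tRNA pseudogene.

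**Figure D5:**
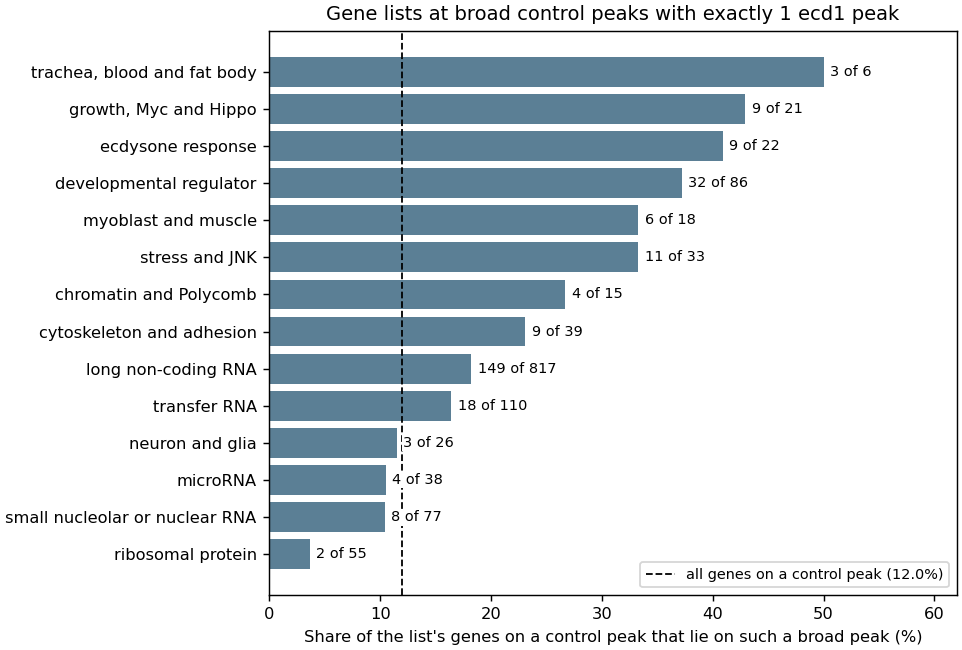
Share of each list's genes on a control peak whose span touches a broad control peak with exactly 1 ecd1 peak (%, horizontal axis), with the counts beside the bars; the dashed line is the share over all genes on a control peak, 12%. Developmental regulators stand at 32 of 86 and ribosomal protein genes at 2 of 55; lists differ in gene length, and lists of few genes, such as trachea, blood and fat body with 3 of 6, carry little precision.

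Ecdysone genes were of interest because ecd is needed for ecdysone synthesis. The gene table placed 5 of 26 list genes at the broad peaks (19.2%), against 7.91% of all genes. By span 9 of 22 on a control peak touched one (40.9%), against 12% of all genes. The list's median gene length was 26776 bp, and 6 of the 9 were among its 8 genes of 50 kb and more, a length at which the share over all genes was 40.1%. They lay on 12 peaks, with median heights of 1.64 in ecd1 and 1.40 in control. Of these, 11 were taller in ecd1 and 1 in control, beside 90.3% taller in ecd1 over all members. Regions higher in ecd1 met 3 of the 12 in the authors' deposited table, and regions higher in control also met 3, which is 25% each, against 47.0% and 17.9% over all members.

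At *br* (broad), the zinc-finger factor of the larval to pupal switch, X:1619711-1627621 had a height of 2.02 in ecd1 and 1.34 in control with a cover of 83.1%, and X:1614112-1618499 had 2.50 in ecd1 and 1.61 in control. At *EcR*, the hormone receptor, 2R:6118470-6122875 had 0.79 in ecd1 and 0.62 in control with a cover of 71.3%. At *Eip75B*, a nuclear receptor of the early response, the peaks had 1.56 and 1.53 in ecd1 and 1.07 and 1.39 in control, with covers of 65.5% and 84.8%. The *EcR* heights were thus under the members' medians and those of *br* above them.

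At *chinmo*, which encodes a zinc-finger factor of early larval stages, 2L:1664421-1670342 had the same ends in both lists, with a height of 2.16 in ecd1 and 1.95 in control. The authors' deposited table split this peak into a region of height 1.21 higher in control and, beside it, a region of height 1.39 higher in ecd1. The other *chinmo* peak, 2L:1686295-1690604, was the one taller in control, with 0.73 in ecd1 and 0.94 in control and a cover of 78.5%. The remaining list peaks were those of *vri*, with 2.04 in ecd1 and 1.71 in control, *ImpE1*, with 1.67 in ecd1, 1.40 in control and a cover of 79.8%, *Eip74EF*, with 1.61 in ecd1 and 1.60 in control, *tai*, with 1.17 in ecd1 and 0.95 in control, and *ImpE2* given above.

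Peaks at growth genes were taller in ecd1, as most members were, and 9 genes held the 13 peaks. Of the growth, Myc and Hippo list, 4 of 22 genes were placed at the broad peaks by the gene table (18.2%, against 7.91% of all genes), and by span 9 of 21 touched one (42.9%, against 12%), with a median gene length of 16995 bp. The 13 peaks taller in ecd1 had medians of 1.51 in ecd1 and 1.29 in control and stand beside 90.3% taller in ecd1 over all members. In the authors' deposited table, 9 of the 13 overlapped a region higher in ecd1 and 1, at *E2f1*, one higher in control, which is 69.2% and 7.69%, against 47.0% and 17.9% over all members. At *ex* (expanded), an upstream Hippo component, 2L:433012-443664 was 10653 bp wide with 1.76 in ecd1 and 1.44 in control. At *Diap1*, the inhibitor of apoptosis, 3L:16040410-16049272 had 2.18 in ecd1 and 1.54 in control.

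At *kibra*, another upstream Hippo component, 2 members made up 57.4% of the gene, with heights of 1.01 and 1.33 in ecd1 and 0.90 and 0.97 in control. At *InR*, the insulin receptor, 2 members had 1.84 and 1.62 in ecd1 and 1.54 and 1.13 in control. The members at *Myc*, with 1.05 in ecd1, 0.88 in control and a cover of 78.1%, and at *S6k*, with 1.45 in ecd1 and 1.28 in control, lay under the members' median ecd1 height. The members at *E2f1*, the activator of cell-cycle genes, had 2.19 and 1.47 in ecd1 and 1.53 and 1.38 in control, with covers of 78.5% and 100%. The glypican gene *dlp* held 2 with 1.51 and 1.65 in ecd1 and 1.32 and 1.29 in control, with covers of 100% and 85.2%.

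Stress and JNK genes contributed 5 of 32 in the gene table (15.6%, against 7.91% of all genes) and 11 of 33 by span (33.3%, against 12%), with a median gene length of 3938 bp. They lay on 10 peaks, of which 7 were taller in ecd1 and 3 in control, whereas the shares over all members were 90.3% and 8.87%. At *Ilp8*, whose peptide delays metamorphosis after disc damage, 3L:17031956-17036015 had the same ends in both lists and a height of 2.82 in ecd1 and 1.61 in control. It met the gene at an end only, as the annotated span of *Ilp8* stops at 17032080. The non-coding genes lncRNA:CR45756 and lncRNA:CR43250 lay wholly inside this peak. The authors' deposited table gave this peak regions of height 1.65 and 1.35 higher in ecd1. One peak, 3L:9378897-9385756, held the small heat shock genes *Hsp23* and *Hsp27* wholly and *Hsp67Ba* in part. It had the same ends in both lists and 2.15 in ecd1 and 1.17 in control. These 2 loci had the largest differences of this list.

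At *Gadd45*, a stress-inducible gene, 2R:7244377-7251458 had 1.98 in ecd1 and 1.17 in control, under an ecd1 peak of 14336 bp. At *wgn* (wengen), a TNF receptor, X:18628997-18637102 had 1.94 in ecd1 and 1.27 in control. At *puc* (puckered), the JNK phosphatase and target, 3R:8103274-8108741 had 0.79 in ecd1 and 0.84 in control with a cover of 76.8%. At *hid*, a cell death gene, 3L:18173700-18177941 had 1.23 in ecd1 and 1.30 in control, and *kay*, the fly Fos, held 1 peak with 1.21 in ecd1 and 1.52 in control and 1 with 1.62 in ecd1 and 0.99 in control. Members of the list thus stood on either side. The glutathione transferase cluster at *GstD1*, also inducible by stress, had 1.79 in ecd1 and 1.21 in control at 3R:12370285-12374717, and copies of this family are similar in sequence.

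Chromatin and Polycomb genes stood at 3 of 17 in the gene table (17.6%, against 7.91% of all genes) and 4 of 15 by span (26.7%, against 12%), with a median gene length of 9160 bp. Their 5 peaks at *lola*, *psq*, *cg* and *Trl* were all taller in ecd1, with heights from 1.67 to 2.53 in ecd1 and 0.98 to 1.77 in control. Cytoskeleton and adhesion genes stood at 5 of 41 (12.2%) in the gene table and 9 of 39 (23.1%) by span, against the same shares over all genes, with a median gene length of 12000 bp. The widest of those was at *zip*, the non-muscle myosin heavy chain, where 2R:25005053-25013413 had 1.90 in ecd1 and 1.40 in control with a cover of 84.1%.

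Ribosomal protein genes stood at 1 of 60 in the gene table (1.67%, against 7.91% of all genes) and at 2 of 55 by span (3.64%, against 12%). Their median gene length was 1318 bp, and the share over all genes under 5 kb was 8.62%. These 2 were *RpS2*, at an end of a peak with 1.32 in ecd1 and 0.81 in control, and *RpL22*, at an end of a peak with 1.60 in ecd1 and 1.28 in control. The *RpS2* peak also held the whole of *Muc30E*. The authors' deposited table gave that peak 2 regions higher in control and 0 higher in ecd1, and the *RpL22* peak 1 higher in ecd1. Histone genes stood at 0 of 5 in the gene table. Small nucleolar and nuclear RNA genes stood at 7 of 102 (6.86%) and 8 of 77 by span (10.4%).

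tRNA genes stood at 11 of 124 in the gene table (8.87%, against 7.91% of all genes) and 18 of 110 by span (16.4%, against 12%), and these 18 shared 6 peaks. Of the 6, 5 were taller in ecd1 and 1 in control, beside 90.3% taller in ecd1 over all members. The 1 taller in control was the 18050 bp peak of the 5S array, which also held glutamate tRNA genes. It had 0.56 in ecd1 and 1.24 in control, a cover of 6.14% and 4 regions higher in control by the authors' deposited table. A cluster of 4 histidine tRNA genes and a pseudogene lay in 2R:12333469-12338714, with heights of 1.94 in ecd1 and 1.73 in control. Arginine tRNA genes lay in 3R:8857116-8863866 with 2.75 in ecd1 and 1.79 in control. tRNA copies are near-identical, with the same uncertainty as the 5S genes.

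Genes of other cell types that a disc can hold were counted too. Neuron and glia genes stood at 2 of 27 in the gene table (7.41%) and at 3 of 26 by span (11.5%), against 7.91% and 12% of all genes, with a median gene length of 47268 bp. They were *beat-Ib*, *sli* and *NetB*, with heights of 1.75, 1.17 and 1.49 in ecd1 and 1.5, 1.17 and 1.52 in control, and the *NetB* peak had a cover of 88.5%. Myoblast and muscle genes stood at 2 of 19 (10.5%) and 6 of 18 by span (33.3%), with a median gene length of 27088 bp. By span they were *vg*, *hbs*, *twi*, *sls*, *kirre* and *rst*. The wing selector *vg* is also on the developmental list, and its peak had 1.15 in ecd1 and 1.19 in control. The genes *kirre* and *rst* lay on the same 2 peaks. The 6 peaks of the myoblast and muscle list had medians of 1.42 in ecd1 and 1.06 in control. Tracheal, blood cell and fat body genes stood at 1 of 6 in the gene table (16.7%) and 3 of 6 by span, namely *trh*, *verm* and *serp*. The Dam constructs were driven by *nub*-Gal4, a driver active in the wing pouch, so these lists do not show that such cells gave signal. A peak of RNase H1 is also no measure of expression. The part of such cells in these peaks was not tested.

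Some members lay close together. Within 10 kb of another member lay 150 of the 609, in 68 runs. Runs were set by distance only, and some crossed several genes or lay over no annotated gene. The same was not counted for other control peaks. The longest run, 3R:31677752-31728127 at *ttk* (tramtrack) and *Zmynd8*, held 5 members with control heights of 1.35, 1.32, 1.65, 1.11 and 1.28. Runs of 4 lay at *corto* and at *RYBP* and *Ppa*, and runs of 3 at *ptc*, *Bx* and *fz2* among others. In all, 8 gene spans overlapped 3 members each, of which 5 held all 3 wholly, and 57 overlapped 2 members each, of which 36 held both wholly, so many members share a gene. The 2 members in *brat* made up 44.3% of that gene.

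The peaks with the most genes in the table were compact. In 3R:19150672-19154790 the table listed *nos* (nanos) and 4 further genes, with heights of 2.14 in ecd1 and 1.73 in control. In 2R:8722374-8727089 it listed *gcl* (germ cell-less) with 4 others, with 1.10 in ecd1 and 0.99 in control. In 2L:13775560-13781298 it listed *p38b*, a stress-activated kinase, with 4 others, with 1.91 in ecd1 and 1.41 in control and a cover of 87.45%. All 3 were taller in ecd1.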

How the data were processed

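Methylation-specific PCR products of 8 libraries were sequenced as paired 50 bp reads, per the labels' protocols, and the build is BDGP6, per the submitters' processing notes. Aligner, peak caller, replicate handling and use of the Dam-only libraries were not given in the sources used here. The authors deposited 1 peak list per genotype with a height, a score of unstated scale, and an FDR, a q-value that reached 0.00962 in ecd1 and 0.00991 in control. The authors' deposited difference tables give 1 region per gene and direction, so a peak without a region may hold one listed elsewhere. No test was run, because no library has values of its own in the files.

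Overlap, cover and counts were computed with Python 3.11.15, pandas 2.3.3, numpy 2.4.6 and scipy 1.17.1, and overlaps were checked with bedtools 2.31.1 and on simulated intervals. Gene spans came from a RefSeq table of Release 6 plus ISO1 MT without strand or exons, which matched 646 of the 655 genes by symbol or synonym. No sequences are given. Members and lists were chosen with earlier results of these data known, and list symbols without a match, such as *Dl* (listed there as *Delta*), were left out of span counts. Named are the genes of the 10 widest and 10 tallest members, of the 5 largest and 5 smallest height differences, of the 3 peaks on each side of the width threshold, of the 3 peaks with most table genes, and up to 8 genes per list at the widest members; others were chosen after their values were seen. Alternatives varied the width minimum, overlap, FDR, merging, region height and gene assignment.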

Additional observations from a re-analysis of the deposited data

How the results depend on the processing

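Of 36 values under other settings, 22 stayed within the limits set for a change (1.5 times for counts, the main value's interval otherwise) and 14 did not. Only the height difference could change sign, and it stayed positive in each setting. The number of members was 1238 with a width minimum of 3000 bp, 301 with 5000 bp and, in an alternative chosen after seeing the data, 366 with at least 90% cover, against 609. The median cover of 97.7% became 91.0% with a reciprocal overlap of 50% and 92.7% with an FDR under 0.001 in both lists. By the authors' deposited table, 47.0% of members had a region higher in ecd1, which became 42.4% with 3000 bp, 53.2% with 5000 bp, 51.0% with the reciprocal overlap, 17.2% with regions of height 1 or more and 54.4% with at least 90% cover. A region higher in control, at 17.9% of members by the authors' deposited table, was at 1.64% with regions of height 1 or more and 8.47% with at least 90% cover. The 8.47% lies under the shares over all control peaks (14.2%) and over those with exactly 1 ecd1 peak (9.36%), both of which 17.9% exceeded. Those 2 shares were not limited by cover. Members holding a developmental regulator by the gene table were 3.99% with 5000 bp and 6.73% by gene span, against 2.30%; all broad control peaks stood at 2.53% by the table and 8.46% by span, and all control peaks at 1.05% and 4.04%. No paired analysis was possible because no library has values of its own in the files, and no library could be left out for the same reason. Depth is unknown, so what it limits cannot be stated.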
